A study of Mus musculus with 18 samples.

Results

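Hepatocytes and biliary epithelial cells are the epithelial cell types of the liver, and their transcripts were set side by side here in mice that had a sham operation (Sham). The comparison holds 3 libraries of primary hepatocytes (MPH) and 3 libraries of biliary epithelial cells (BECs), 6 of the 18 libraries of a study on bile duct ligation (BDL). The other 12 libraries are Kupffer-like cells of Sham mice and all 3 cell types of BDL mice. Every library held RNA of cells isolated from mouse liver. The sources used here do not give the strain, genotype, age or sex of the mice, or the time after the operation. Genes entered when their deposited FPKM (a level per kilobase of transcript, adjusted for library size) was at least 1 in at least 3 of the 6 libraries, which was so for 13497 of 54532 genes (24.8%). Kupffer-like cells of Sham mice, 3 libraries, serve below as a level to set beside, on the deposited scale. Of these, 2 carry the same number in their titles as MPH 2 and MPH 3, so they may come from the same mice. Hepatic stellate cells, which the study's design also names, were not analysed here. The labels say neither how the cells were separated nor whether each library came from a mouse of its own, so p-values measure only the spread between these libraries.

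Hepatocytes and biliary epithelial cells, also called cholangiocytes, arise from a common precursor, the hepatoblast. Hepatocytes make most plasma proteins and the bile acids, store and release glucose, dispose of ammonia, and take up and modify drugs and hormones. Biliary epithelial cells line the bile ducts, carry a primary cilium, rest on a basement membrane, and change the bile by secreting bicarbonate and water. Hepatocyte identity is held by factors such as HNF4A and CEBPA, and biliary identity by SOX9 and Notch signalling.

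Promoter sequences are given first, since they let the differences be read beside letters that known factors bind. The nuclear receptor HNF4A binds CAAAGTCCA, and the AP-1 dimers of FOS and JUN proteins bind TGAGTCA. For each motif the 2 genes with the largest difference that hold the letters on either strand are shown, among genes that differed at least 8-fold; promoters of 1 chromosome were left out. The HNF4 letters were looked for among genes higher in MPH and the AP-1 letters among genes higher in BECs, so the direction of the genes shown was set by the choice. Each line is the 250 bases before the RefSeq transcript start in GRCm38.p6, 5′ to 3′ on the gene's strand, with the letters it was chosen for in capitals.
Slc3a1 (chr17:85028097-85028346, plus strand), cystine and basic amino acid transport, HNF4 letters: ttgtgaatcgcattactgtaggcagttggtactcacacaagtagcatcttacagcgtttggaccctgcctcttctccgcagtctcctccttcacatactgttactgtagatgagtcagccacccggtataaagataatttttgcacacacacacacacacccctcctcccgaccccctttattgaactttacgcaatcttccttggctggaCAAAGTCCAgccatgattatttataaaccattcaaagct
Cyp2c70 (chr19:40187287-40187536, minus strand), muricholic acid synthesis, HNF4 letters: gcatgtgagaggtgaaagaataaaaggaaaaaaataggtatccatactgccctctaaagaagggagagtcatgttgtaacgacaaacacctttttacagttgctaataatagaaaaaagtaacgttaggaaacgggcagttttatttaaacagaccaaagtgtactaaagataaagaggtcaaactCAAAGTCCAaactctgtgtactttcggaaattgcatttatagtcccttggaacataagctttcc
Cldn4 (chr5:134946935-134947184, minus strand), a tight junction claudin, AP-1 letters: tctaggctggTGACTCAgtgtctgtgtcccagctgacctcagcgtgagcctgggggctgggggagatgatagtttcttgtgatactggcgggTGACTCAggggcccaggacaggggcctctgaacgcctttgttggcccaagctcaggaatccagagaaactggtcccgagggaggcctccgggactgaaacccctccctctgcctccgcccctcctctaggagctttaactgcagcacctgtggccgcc
Sprr1a (chr3:92485882-92486131, minus strand), a squamous cell envelope protein, AP-1 letters: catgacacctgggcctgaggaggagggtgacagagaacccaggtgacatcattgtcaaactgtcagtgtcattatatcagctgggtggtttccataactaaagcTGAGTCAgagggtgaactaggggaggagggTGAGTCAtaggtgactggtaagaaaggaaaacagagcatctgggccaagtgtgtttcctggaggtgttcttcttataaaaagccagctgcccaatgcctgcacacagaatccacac

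The match lies 39 to 31 bases before the start of Slc3a1 and 64 to 56 before Cyp2c70. Slc3a1 also holds AP-1 letters, left in lower case, at 140 to 134 bases before its start. Cldn4 holds AP-1 letters at 240 to 234 and at 158 to 152 bases before its start, and Sprr1a at 146 to 140 and at 116 to 110. Slc3a1 averaged 96.9 ± 54.7 FPKM in MPH and 1.09 ± 0.96 FPKM in BECs (± SD, n = 3 per group, as throughout). For Cyp2c70 the levels were 607 ± 422 FPKM in MPH and 12.3 ± 8.85 FPKM in BECs. The levels of Cldn4 and Sprr1a, which are higher in BECs, are given with the junction genes.

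In windows of 250 bases before to 50 after the start, the HNF4 letters stood in 14 of 427 promoters (3.28%) of genes at least 8-fold higher in MPH, in 0 of 257 of genes at least 8-fold higher in BECs and in 129 of all 27025 windows (0.477%). For the AP-1 letters the counts were 30 of 427 (7.03%), 30 of 257 (11.7%) and 1396 of all windows (5.17%). Letters of the TEAD factors, GGAATG, stood in 15.9% of the MPH windows, 16.7% of the BECs windows and 14.6% of all windows. The TATA box letters TATAAA stood in 18.3%, 17.9% and 14.2%. Among every gene called higher in MPH, whatever its fold, the HNF4 letters stood in 0.795% of windows, and among those called higher in BECs in 0.234%. Over the same called genes the shares with the AP-1 letters were 4.08% for MPH and 4.53% for BECs. Both lay under the share of all windows, which include genes that were not tested, and above that of tested genes without a call (3.37%). With the TEAD letters the shares were 12.7% and 13.2%, and with the TATA box letters 9.09% and 8.56%. Tested genes without a call had 0.55% with the HNF4 letters, 11.2% with the TEAD letters and 6.39% with the TATA box letters. Both strands were searched, and no motif contains another. The 8-fold subsets were picked after the values were seen. These shares describe letters in a short window and were not tested. The median ratio of observed to expected CpG was 0.277 in the 8-fold MPH windows, 0.458 in the 8-fold BECs windows and 0.389 in all windows. Among all genes called higher in MPH it was 0.706, and among those called higher in BECs 0.714. Tested genes without a call had 0.796, so both 8-fold sets lay under the tested genes without a call.

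From the deposited values, each library's reads in genes came to 16730372 at the lowest and 20583319 at the highest. The libraries differed in composition: Alb, the gene of serum albumin, took 4.21%, 7.5% and 9.7% of the reads in MPH 1, 2 and 3, against 0.453%, 0.239% and 0.701% in BECs 1, 2 and 3. The 100 most abundant genes took 33.5% to 44.9% of the reads in MPH and 22.4% to 24.5% in BECs. The deposited scaling is close to one that sets the median gene equal, and the median difference over all tested genes was 0.0377 on the log2 scale. Scaled to the reads in genes instead, that median was -0.569, and scaled to a common FPKM sum it was -0.918, so that the log2 differences of most genes are lower by about that shift. In bulk RNA, fewer cells of a type and less RNA per cell cannot be told apart. By the Y-linked gene Ddx3y and by Xist, MPH 2 and BECs 3 came from females and the other 4 libraries from males. MPH libraries carried transcripts of Kupffer cells, most of all MPH 1, and BECs libraries carried transcripts of fibroblasts and smooth muscle, with values at the end.

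Over all 13497 genes, 7451 (55.2%) differed between MPH and BECs by limma on log2(FPKM + 1) at a Benjamini-Hochberg adjusted p under 0.05. Of these, 3865 (28.6% of the tested genes) were higher in MPH and 3586 (26.6%) were higher in BECs. Scaled to reads in genes, 1922 (14.5%) were higher in MPH and 6440 (48.5%) in BECs, and scaled to a common sum 1428 (10.1%) and 8699 (61.8%). The 3 values of one group lay wholly above those of the other for 64.7% of tested genes. Called differences of at least 8-fold on the same scale were found for 563 genes (4.17%) in the direction of MPH and for 381 (2.82%) in the direction of BECs. Of these, 559 and 381 kept their call when scaled to a common sum. Differences of at least 32-fold numbered 91 and 46. Under the named-gene rule given with the processing, the 10 largest differences towards MPH were those of Marco, Wfdc21, Cd5l, Ass1, Uroc1, C8g, Ehhadh, Obp2a, Hal and Clec4f, a mixture of enzymes, secreted proteins and macrophage genes. The 10 largest towards BECs were those of Cldn4, Dmbt1, Ankrd1, Krt19, Epcam, Spp1, Dpt, Tspan8, Sprr1a and Cldn7, mostly genes of epithelial junctions, filaments and secretion. Lists of genes are read below against the shares 28.6% and 26.6% as deposited. Counts under another scaling are read against its own shares, 14.5% and 48.5% for reads in genes and 10.1% and 61.8% for a common sum. Adjusted p-values are those of limma over all tested genes. A log2 difference is MPH minus BECs on the log2(FPKM + 1) scale, which understates the change of genes near 1 FPKM.

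**Figure D1:**
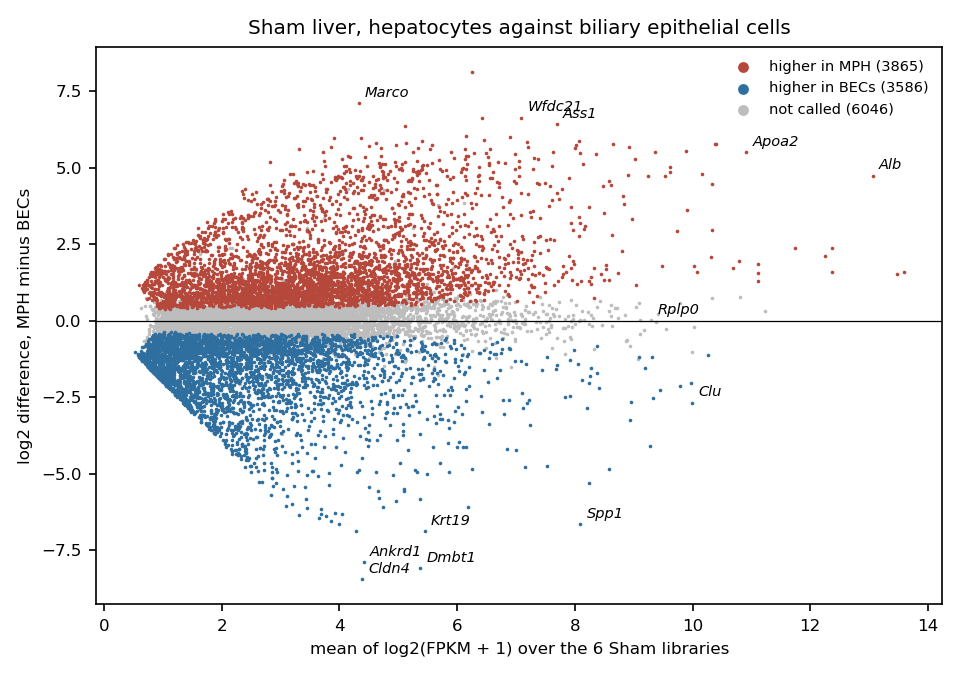
Log2 difference between MPH and BECs (y axis, positive when higher in MPH) against the mean of log2(FPKM + 1) over the 6 Sham libraries (x axis), with 1 point per tested gene. Red points were higher in MPH (3865), blue points higher in BECs (3586) and grey points were not called (6046); scaled to a common sum the calls were 1428 and 8699.

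The labelled cell types were checked against marker lists. All 16 hepatocyte markers were higher in MPH, with a median log2 difference of 5.09, and all 15 biliary markers were higher in BECs, with a median of -4.73. Alb was at 24262, 45229.5 and 80206 FPKM in MPH, against 1742, 948 and 2744 FPKM in BECs. The MPH libraries lay far above the BECs libraries, with MPH 3 highest (log2 difference 4.75, SE 0.57, adjusted p = 0.000365). Krt19, a keratin of bile duct cells, had levels of 3.32, 3.2 and 2.62 FPKM in MPH, against 459, 588 and 387 FPKM in BECs. All 3 BECs libraries lay far above any MPH library (log2 difference -6.87, SE 0.22, adjusted p = 6.78e-06). The surface protein gene Epcam, often used to sort biliary cells, stood at 0.332, 1.36 and 0.851 FPKM in MPH, against 196, 224 and 203 FPKM in BECs, and Spp1, the gene of the secreted protein osteopontin, at 14.9, 34.9 and 34.3 FPKM in MPH, against 2664, 2439.7 and 3153 FPKM in BECs. Both were far higher in each BECs library, with log2 differences of -6.86 and -6.65. Hepatocyte transcripts were low but present in BECs, where the median marker reached 2.87% of its MPH level. Among tested genes, 4 averaged at least 5 FPKM in MPH and under 0.1 FPKM in BECs, and 118 the reverse. How much hepatocyte RNA the BECs libraries carried, and its part in the size of the differences, was not tested. The summed hepatocyte markers were 68158, 91623 and 143236 FPKM in MPH against 3804, 1830 and 4558 FPKM in BECs. The summed biliary markers were 32.2, 67.8 and 86 FPKM in MPH, against 4199, 4268 and 4559 FPKM in BECs. Cftr, the chloride channel of the bile duct, and Sctr, the secretin receptor, were listed at 0 in MPH 1.

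**Figure D2:**
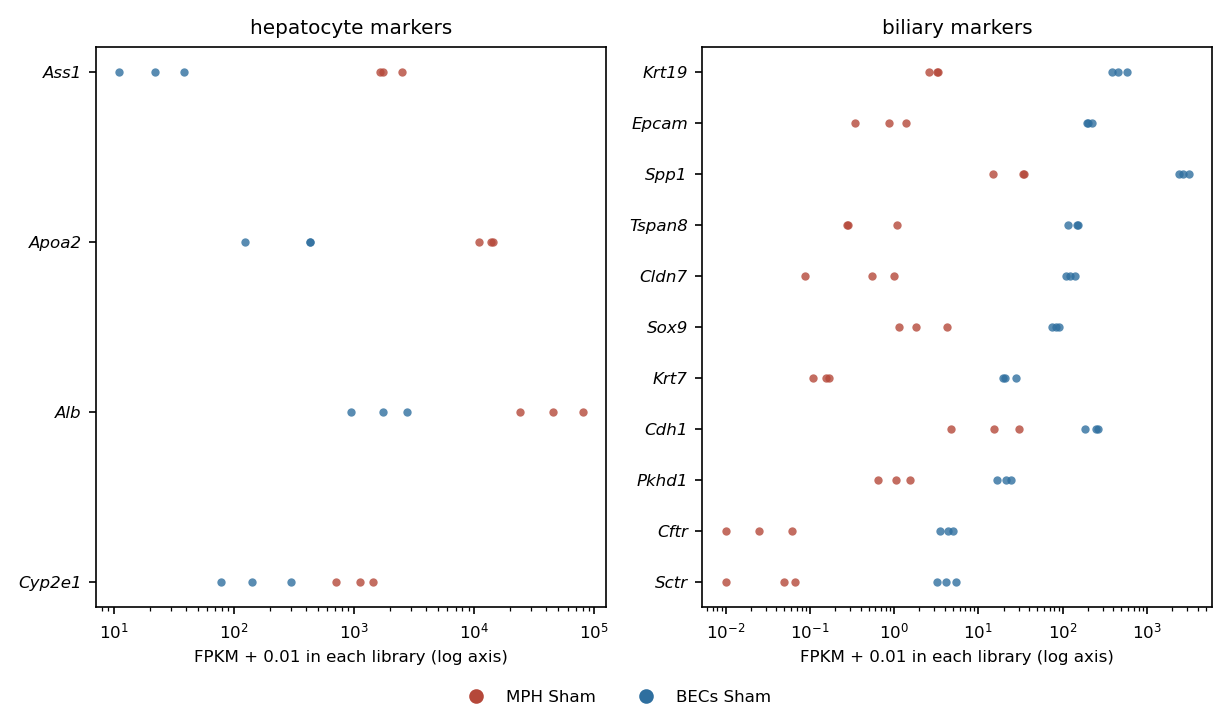
FPKM + 0.01 in each library on a log axis for 4 hepatocyte markers (left) and 11 biliary markers (right) that the text names, with MPH in red and BECs in blue, 3 points per group. The groups do not overlap for any of these genes.

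Transcripts of proteins that the liver secretes into plasma were higher in MPH almost without exception. Of the transport and protease inhibitor genes, 18 of 18 were higher in MPH (median 4.96), and of the coagulation genes 17 of 18 (median 4.69). Orm1, an acute phase carrier of drugs, was at 2344, 1293 and 2301 FPKM in MPH, against 33.9, 23.2 and 51.6 FPKM in BECs. Its lowest MPH library was far above its highest BECs library (log2 difference 5.75, SE 0.38, adjusted p = 2.82e-05). Serpina1e, of the antitrypsin family, was among the 5 most abundant transcripts of MPH, at 14350.4, 2101 and 32519 FPKM in MPH, against 381, 159.8 and 96.5 FPKM in BECs. Library MPH 2, from a female, was lowest, and near-identical Serpina1 copies may share reads (log2 difference 5.77, SE 0.99, adjusted p = 0.00203). Among coagulation genes, Kng1, the kininogen gene, had levels of 439, 788 and 1253 FPKM in MPH, against 36.1, 10.8 and 28.1 FPKM in BECs, and F10, coagulation factor X, at 168, 212 and 339.7 FPKM in MPH, against 8, 3.26 and 10.4 FPKM in BECs. Cpb2, a fibrinolysis inhibitor, and Serpinf2, the plasmin inhibitor, differed by 5.32 and 5.10. The exception was Pros1, protein S, a cofactor of protein C, at 30.6, 35.7 and 29.6 FPKM in MPH, against 27.7, 26.3 and 20.6 FPKM in BECs, where the groups did not overlap but the difference missed the threshold (adjusted p = 0.162).

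Complement genes were higher in MPH, but to very different degrees. In all, 19 of 20 tested genes were higher in MPH (median 2.05), but only 13 when scaled to reads in genes and 10 when scaled to a common sum. Genes of the terminal attack complex and of the lectin route were far higher in MPH. C8g, a subunit of C8, was at 453, 576 and 728 FPKM in MPH, against 8.64, 4.66 and 11.1 FPKM in BECs, with no overlap (log2 difference 6.04, SE 0.33, adjusted p = 1.77e-05). Mbl2, a mannose-binding lectin, had levels of 287, 639 and 559 FPKM in MPH, against 12.6, 4.39 and 18.3 FPKM in BECs, and C9, the pore-forming component, at 109, 56 and 442 FPKM in MPH, against 9.1, 5 and 1.23 FPKM in BECs. Their log2 differences were 5.39 and 4.77. Some earlier components were substantial in BECs too. C3, the central component, stood at 2267, 2377 and 3323 FPKM in MPH, against 526, 552 and 798 FPKM in BECs (log2 difference 2.09, SE 0.31, adjusted p = 0.000897). Its lowest MPH library was still above its highest BECs library, and the BECs mean was 625 ± 150.2 FPKM, against 79.9 FPKM in Kupffer-like cells. Ambp, the gene of the bikunin precursor and a member of the transport list, had a similar profile, at 1600.2, 1622 and 2749 FPKM in MPH, against 556, 548 and 579 FPKM in BECs (log2 difference 1.78, SE 0.30, adjusted p = 0.00189), with 20.4 FPKM in Kupffer-like cells. C1s1, a protease of the classical route, was at 61.5, 104 and 215 FPKM in MPH, against 40.5, 43.1 and 41.1 FPKM in BECs, with a less stable call (log2 difference 1.40, SE 0.42, adjusted p = 0.0252). Without MPH 2, BECs 1, BECs 2 or BECs 3, the adjusted p of C1s1 was 0.0552, 0.0709, 0.0644 or 0.0721. Without MPH 3 its log2 difference was 0.93. The calls of C1s1 and Ambp were lost on scaling to a common sum and with quantile normalization, and that of C1s1 also on scaling to reads in genes.

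Lipoprotein genes were likewise higher in MPH, 16 of 17 (median 4.46). Apoa2, of high density lipoprotein, was at 11065, 13789 and 14476 FPKM in MPH, against 430.4, 124 and 430.5 FPKM in BECs (log2 difference 5.51, SE 0.51, adjusted p = 0.000111). Apoc3, an inhibitor of lipoprotein lipase, had levels of 1861, 2302 and 2074 FPKM in MPH, against 45.1, 18.3 and 48.3 FPKM in BECs, and its MPH values lay close together (log2 difference 5.88, SE 0.39, adjusted p = 3e-05). Apom, a carrier of sphingosine 1-phosphate, and Apof differed by 5.62 and 5.18. Apoe, also made by macrophages, stood at 10936, 12861 and 12679 FPKM in MPH, against 2170.0, 1720.2 and 3324 FPKM in BECs, with 3766 FPKM in Kupffer-like cells (log2 difference 2.39, SE 0.35, adjusted p = 0.00086), but with quantile normalization its log2 difference was -0.00455.

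Transcripts of bile acid synthesis were higher in MPH: 13 of 14 genes were higher in MPH (median 4.08). Baat, which joins bile acids to taurine, was at 137, 159 and 286 FPKM in MPH, against 7.84, 2.24 and 3.64 FPKM in BECs (log2 difference 5.18, SE 0.43, adjusted p = 6.47e-05), and Slc27a5, the bile acid CoA ligase, at 238, 523 and 854 FPKM in MPH, against 20.6, 6.66 and 17.3 FPKM in BECs (log2 difference 5.04, SE 0.56, adjusted p = 0.00024). Both were higher in each MPH library than in any BECs library. Cyp7a1, which opens the classical route and limits its rate, was low and uneven, at 3.91, 35.8 and 21.8 FPKM in MPH, against 1.73, 0.292 and 3.03 FPKM in BECs (log2 difference 2.73, SE 0.75, adjusted p = 0.0174). Without MPH 2, MPH 3 or BECs 2, the adjusted p of Cyp7a1 was 0.0521, 0.0623 or 0.0612. Cyp7b1, the oxysterol hydroxylase, had levels of 224, 35.6 and 804 FPKM in MPH, against 10.6, 5.49 and 4.49 FPKM in BECs. It was lowest in MPH 2, the library from a female, and highest in MPH 3 (log2 difference 4.65, SE 1.00, adjusted p = 0.00579). Cyp39a1, which hydroxylates 24-hydroxycholesterol, was the member without a call, at 7.61, 17.1 and 20.4 FPKM in MPH, against 11, 11 and 11.8 FPKM in BECs (adjusted p = 0.501). Its BECs values lay inside the MPH range, and it stood at 0.906 FPKM in Kupffer-like cells.

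Carriers of bile acids were mostly higher in MPH. Of the uptake carriers, 7 of 8 were higher in MPH (median 3.74). Slc10a1, the sodium-dependent uptake carrier of the blood-facing membrane, was at 114, 231 and 365 FPKM in MPH, against 12.9, 4.03 and 4.61 FPKM in BECs (log2 difference 4.87, SE 0.52, adjusted p = 0.000218). Slc10a2, the carrier by which cholangiocytes recover bile acids from bile, had levels of 3.4, 1.72 and 9.42 FPKM in MPH, against 7.25, 10.6 and 3.97 FPKM in BECs, and the groups overlapped (adjusted p = 0.323). It was called higher in BECs under both other scalings. Among exporters, 8 of 12 were higher in MPH and 1 in BECs. Abcb11, the bile salt export pump, stood at 59.8, 133 and 229 FPKM in MPH, against 6.03, 2.04 and 3.56 FPKM in BECs (log2 difference 4.74, SE 0.51, adjusted p = 0.000216), and Abcg5 and Abcg8, which together export sterols, differed by 3.83 and 3.48. The member higher in BECs was Abcb1a, a drug efflux pump, at 0.508, 2.5 and 0.781 FPKM in MPH, against 20.6, 23.5 and 13.3 FPKM in BECs (log2 difference -3.22, SE 0.35, adjusted p = 0.000241). All its MPH values lay far under its BECs values, whereas its relative Abcb4, the phospholipid floppase, was at 14.8, 25.5 and 30.4 FPKM in MPH, against 2.13, 0.882 and 1.53 FPKM in BECs (log2 difference 3.26, SE 0.31, adjusted p = 0.000115).

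Drug metabolism genes were higher in MPH, some with wide spread between its libraries. Of the cytochrome P450 genes with their electron donors, 17 of 20 were higher in MPH (median 4.08), and of the conjugation genes 18 of 19 (median 3.55). Cyp2a12, a steroid hydroxylase, was at 87.5, 129 and 277 FPKM in MPH, against 4.4, 2.16 and 4.51 FPKM in BECs (log2 difference 5.02, SE 0.44, adjusted p = 8.3e-05). Cyp2b9, known to be higher in female mouse liver, had levels of 21.8, 242 and 19.6 FPKM in MPH, against 0, 0 and 4.38 FPKM in BECs, highest in the libraries MPH 2 and BECs 3 from females (log2 difference 4.79, SE 1.06, adjusted p = 0.00652). Cyp2d9, known to be higher in males, stood at 104, 11.4 and 396 FPKM in MPH, against 37.3, 12.9 and 0.63 FPKM in BECs and was not called (adjusted p = 0.115). It was lowest in those same 2 libraries of its groups. With sex as a term in the fit, the calls over all genes numbered 3666 higher in MPH and 3464 higher in BECs. Gnmt, which takes up surplus methyl groups, was at 1632, 1591 and 2338 FPKM in MPH, against 49, 21.7 and 40.2 FPKM in BECs, and Bhmt, which remethylates homocysteine, at 921, 904 and 1392 FPKM in MPH, against 19.5, 9.29 and 39.8 FPKM in BECs. Both genes, similar in the 3 MPH libraries, differed by 5.66 and 5.68. Por, the electron donor of every microsomal P450, had levels of 72.4, 62.4 and 56.8 FPKM in MPH, against 41.6, 52.5 and 39.6 FPKM in BECs and was not called (adjusted p = 0.073), and the glucuronidation gene Ugt2b34 was not called either, at 28.1, 78 and 136 FPKM in MPH, against 40.9, 38.9 and 14.2 FPKM in BECs (adjusted p = 0.137). Members of these families are similar in sequence and may share reads.

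Enzymes of nitrogen disposal included some of the largest differences. Of the amino acid breakdown genes, 20 of 20 were higher in MPH (median 4.22), and of the urea cycle and ammonia genes 9 of 11 with 1 higher in BECs. Ass1, which joins citrulline to aspartate in the urea cycle, was at 1633, 1728 and 2516 FPKM in MPH, against 22.1, 11.2 and 38.7 FPKM in BECs (log2 difference 6.43, SE 0.44, adjusted p = 3.31e-05). Its lowest MPH library was far above its highest BECs library. The histidine route was represented by Uroc1 and Hal, urocanase and histidine ammonia lyase. Uroc1 had levels of 269, 272 and 422 FPKM in MPH, against 2.13, 1.29 and 6.84 FPKM in BECs (log2 difference 6.36, SE 0.45, adjusted p = 3.79e-05), and Hal at 139.5, 149 and 205 FPKM in MPH, against 1.88, 0.652 and 2.67 FPKM in BECs (log2 difference 5.98, SE 0.32, adjusted p = 1.7e-05). Gls2, the liver glutaminase, which frees ammonia, stood at 91.8, 182 and 259 FPKM in MPH, against 1.88, 1.07 and 4.14 FPKM in BECs (log2 difference 5.71, SE 0.46, adjusted p = 5.84e-05). Glul, glutamine synthetase, a gene of hepatocytes around the central vein, was at 216, 339 and 106 FPKM in MPH, against 189, 149.8 and 167 FPKM in BECs, with groups that overlapped (adjusted p = 0.66).

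Glucose and fat handling followed the same direction. All 11 gluconeogenesis and glycogen genes were higher in MPH (median 4.21), led by Fbp1, fructose bisphosphatase, at 961, 996 and 1413 FPKM in MPH, against 21.1, 9.77 and 28.7 FPKM in BECs (log2 difference 5.85, SE 0.40, adjusted p = 3.24e-05). G6pc, which releases free glucose, was at 209, 288 and 716 FPKM in MPH, against 23.6, 7.17 and 14.1 FPKM in BECs (log2 difference 4.60, SE 0.55, adjusted p = 0.000358). Fatty acid oxidation and ketone genes were higher in MPH in 18 of 18 cases (median 3.12), or 14 when scaled to a common sum. Ehhadh, of the peroxisomal route, had levels of 661, 1127 and 1160.4 FPKM in MPH, against 11.2, 6.7 and 34.5 FPKM in BECs (log2 difference 6.00, SE 0.55, adjusted p = 0.000108), and Fabp1, which carries fatty acids in the hepatocyte cytosol, at 4963, 2841 and 6181 FPKM in MPH, against 158, 57.3 and 99.5 FPKM in BECs (log2 difference 5.51, SE 0.46, adjusted p = 6.61e-05). Every MPH library lay above every BECs library for both. Smaller differences marked the general machinery of mitochondria and peroxisomes. Of the nuclear respiratory chain genes 18 of 18 were higher in MPH (median 1.46), but 6 when scaled to a common sum. Cyc1, cytochrome c1, stood at 174, 169 and 227 FPKM in MPH, against 41.2, 45.7 and 54.6 FPKM in BECs (log2 difference 1.98, SE 0.23, adjusted p = 0.000282). Of the protein genes of the mitochondrial genome 12 of 13 were higher in MPH, and 4 when scaled to a common sum. Of the peroxisome biogenesis genes, 13 of 15 were higher in MPH and 4 when scaled to a common sum, with 1 then higher in BECs; Pex16, a membrane assembly factor, was at 62, 63.3 and 76 FPKM in MPH, against 9.11, 9.09 and 11.7 FPKM in BECs (log2 difference 2.64, SE 0.19, adjusted p = 3.66e-05). For cholesterol synthesis the counts were 11 of 18 as deposited, and 6 higher in MPH with 2 higher in BECs when scaled to a common sum. Ebp, a late enzyme of the route, had levels of 124, 149.7 and 223 FPKM in MPH, against 16.9, 13.4 and 21.5 FPKM in BECs (log2 difference 3.17, SE 0.29, adjusted p = 9.08e-05).

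Regulators of the hepatocyte programme were mostly higher in MPH, by less than the hepatocyte markers. Of 22 factors and receptors, 15 were higher in MPH, 1 was higher in BECs and 6 were not called (median 1.73, beside 5.09 for the markers). Hnf4a, the nuclear receptor at the centre of hepatocyte identity, was at 141, 124 and 241 FPKM in MPH, against 24.4, 25.6 and 15.2 FPKM in BECs. MPH lay above BECs in each library, but BECs held 21.7 ± 5.7 FPKM against 5.9 FPKM in Kupffer-like cells (log2 difference 2.87, SE 0.33, adjusted p = 0.000269). Cebpa, which drives metabolic genes, had levels of 267, 271 and 458 FPKM in MPH, against 77.5, 67.7 and 72 FPKM in BECs (log2 difference 2.14, SE 0.28, adjusted p = 0.000477). Nr1h4, the bile acid receptor FXR, stood at 61.1, 42.1 and 69.9 FPKM in MPH, against 8.66, 7.16 and 9.15 FPKM in BECs, and Nr0b2, its target SHP, at 64.8, 69.2 and 129 FPKM in MPH, against 7.7, 4.71 and 9.19 FPKM in BECs. Their log2 differences were 2.63 (adjusted p = 8.12e-05) and 3.40 (adjusted p = 0.000145). Creb3l3, a fasting factor anchored in the endoplasmic reticulum, was furthest apart, at 84.1, 75.6 and 129 FPKM in MPH, against 7.03, 3.88 and 3.88 FPKM in BECs (log2 difference 4.04, SE 0.29, adjusted p = 3.88e-05). Nr1h3, the oxysterol receptor LXR alpha, was at 158, 94.3 and 77.6 FPKM in MPH, against 7.41, 6.27 and 8.34 FPKM in BECs (log2 difference 3.67, SE 0.29, adjusted p = 4.86e-05). It was highest in MPH 1, and Kupffer-like cells held 91.2 FPKM, and how much of its MPH level is hepatocyte RNA was not tested. Among those not called, Prox1, Onecut1, Onecut2, Nr5a2 and Foxa2 had log2 differences of -0.56, 0.04, -0.42, -0.03 and 0.33. Prox1, Onecut2 and Nr5a2 were called higher in BECs under both other scalings, and Foxa2 on scaling to a common sum.

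Among related genes, 2 forkhead factors divided between the cell types. Foxa3 was at 25.7, 23.6 and 36.2 FPKM in MPH, against 4.6, 2.49 and 3.52 FPKM in BECs (log2 difference 2.71, SE 0.25, adjusted p = 9.2e-05), and Foxa1 at 4.75, 4.19 and 14.4 FPKM in MPH, against 29.3, 32.3 and 22.6 FPKM in BECs (log2 difference -1.90, SE 0.41, adjusted p = 0.00606). The groups did not overlap for either, and the direction was opposite. Among adhesion genes, Cdh2, N-cadherin, had levels of 5.63, 11.1 and 15.9 FPKM in MPH, against 2.83, 2.09 and 1.89 FPKM in BECs (log2 difference 1.77, SE 0.34, adjusted p = 0.00336), and Cdh1, E-cadherin, at 4.7, 15.5 and 30.6 FPKM in MPH, against 247, 266 and 185 FPKM in BECs (log2 difference -4.00, SE 0.57, adjusted p = 0.000829). Gap junctions divided in the same way. Gjb1, connexin 32, stood at 411, 535 and 723 FPKM in MPH, against 57.7, 48.9 and 49.6 FPKM in BECs (log2 difference 3.36, SE 0.27, adjusted p = 5.53e-05). Gja1, connexin 43, was at 2.48, 3.3 and 0.632 FPKM in MPH, against 10.8, 12.4 and 8.09 FPKM in BECs (log2 difference -1.96, SE 0.37, adjusted p = 0.00301).

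**Figure D3:**
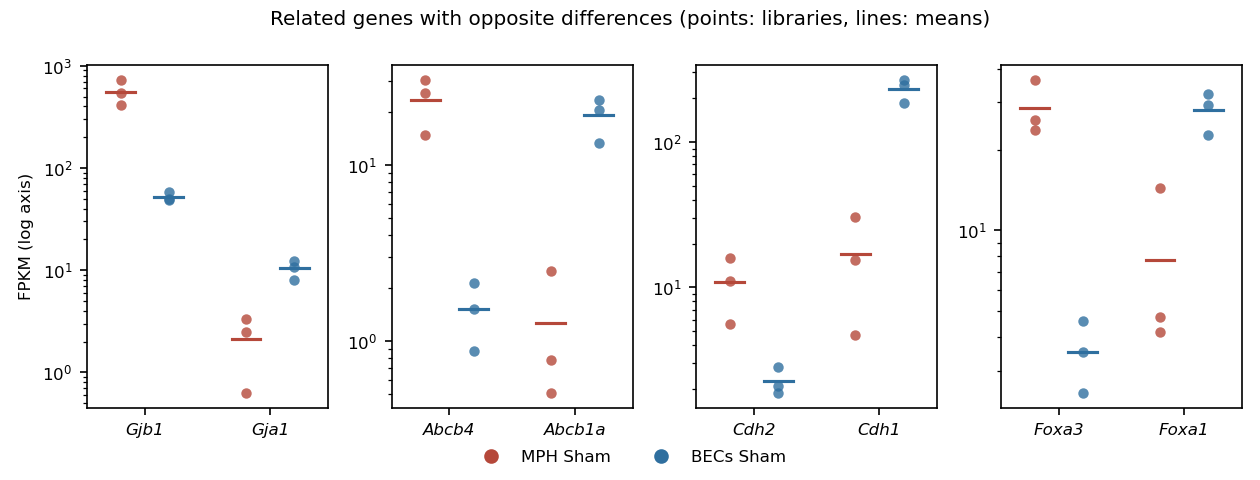
FPKM in each library (points, log axis) and group means (lines) for 4 pairs of related genes, with MPH in red and BECs in blue. In each pair the gene on the left was higher in MPH and the gene on the right higher in BECs, and the groups do not overlap for any of the 8 genes; the pairs were chosen after the values were seen.

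Isozymes of glucose handling were called about as often as genes overall: 7 of 21 were higher in MPH and 5 higher in BECs, beside 28.6% and 26.6% of all tested genes. When scaled to a common sum the counts were 6 and 12, beside 10.1% and 61.8% of all genes. Hk1, a high-affinity hexokinase, was at 4.58, 5.03 and 1.37 FPKM in MPH, against 7.94, 9 and 10.1 FPKM in BECs (log2 difference -1.21, SE 0.36, adjusted p = 0.0226). Aldoa, the aldolase of most tissues, had levels of 135, 81 and 57.4 FPKM in MPH, against 145, 169 and 179 FPKM in BECs (log2 difference -0.92, SE 0.33, adjusted p = 0.0459). Without BECs 2 or BECs 3, the adjusted p of Hk1 was 0.0626 or 0.0753. Without MPH 2, MPH 3, BECs 1, BECs 2 or BECs 3, the adjusted p of Aldoa was 0.111, 0.0996, 0.0835, 0.117 or 0.121. Without MPH 3 the log2 difference of Hk1 was -0.78, and with sex as a term the adjusted p of Aldoa was 0.0727. Pklr, the liver pyruvate kinase, stood at 44.3, 49.5 and 74.7 FPKM in MPH, against 7.1, 5.94 and 5.48 FPKM in BECs (log2 difference 2.96, SE 0.24, adjusted p = 5.36e-05), whereas Pkm, the form of other tissues, overlapped between groups, at 70.9, 45.7 and 18.4 FPKM in MPH, against 41.7, 52.3 and 65.3 FPKM in BECs (adjusted p = 0.491). Slc2a1, the glucose transporter GLUT1, was at 4.55, 7.61 and 6.11 FPKM in MPH, against 40.5, 47.5 and 49.2 FPKM in BECs (log2 difference -2.74, SE 0.21, adjusted p = 4.81e-05). All BECs libraries lay far above the MPH libraries. Slc2a2, the transporter GLUT2 of the hepatocyte, overlapped, at 14, 47.4 and 68.2 FPKM in MPH, against 29.4, 25.4 and 18.1 FPKM in BECs (adjusted p = 0.399). Hk3, a hexokinase of myeloid cells, was higher in MPH, at 30.5, 27.4 and 11.2 FPKM in MPH, against 2.43, 2.6 and 3.81 FPKM in BECs (log2 difference 2.50, SE 0.37, adjusted p = 0.000971), with 53.4 FPKM in Kupffer-like cells.

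Transcription factors of the biliary and other epithelia ran the other way. Of 23 tested, 0 were higher in MPH and 19 in BECs (median -1.91). Elf3, an epithelial ETS factor, was at 0.237, 0.321 and 0.365 FPKM in MPH, against 77.7, 116 and 80.1 FPKM in BECs (log2 difference -6.12, SE 0.20, adjusted p = 6.78e-06). Ehf, a factor of the same family, had levels of 0.027, 0.256 and 0.083 FPKM in MPH, against 29.7, 40.9 and 28.3 FPKM in BECs (log2 difference -4.91, SE 0.20, adjusted p = 7.46e-06). In MPH both stayed near 0 in every library. Klf5, a zinc finger factor of proliferating epithelia, stood at 0.0289, 0.122 and 0.134 FPKM in MPH, against 27.7, 34.2 and 15.7 FPKM in BECs (log2 difference -4.55, SE 0.28, adjusted p = 2.41e-05), and Foxj1, known for the genes of motile cilia, at 0.0287, 0.242 and 0.0882 FPKM in MPH, against 25.7, 20.2 and 29 FPKM in BECs (log2 difference -4.53, SE 0.19, adjusted p = 8.47e-06). Sox9, which marks bile ducts from early development, was at 1.8, 1.15 and 4.23 FPKM in MPH, against 83.2, 91.8 and 73.9 FPKM in BECs (log2 difference -4.73, SE 0.32, adjusted p = 3.32e-05), and Sox4, its partner there, at 0.627, 1.54 and 0.628 FPKM in MPH, against 28, 25.9 and 21.6 FPKM in BECs (log2 difference -3.78, SE 0.23, adjusted p = 2.1e-05). Hes1, a Notch target, had levels of 37.6, 31.3 and 14.5 FPKM in MPH, against 442, 448 and 609 FPKM in BECs (log2 difference -4.20, SE 0.37, adjusted p = 8.61e-05), with 59.3 FPKM in Kupffer-like cells. It was lowest in MPH 3, the library with the lowest Kupffer cell marker sum. Id2, Id3, Zeb1 and Tcf7l2 were not called, with log2 differences of -0.25, -0.35, 0.13 and 0.16.

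Keratins were higher in BECs but not absent from MPH. All 10 tested genes of keratins and of proteins that anchor them were higher in BECs (median -3.22). Krt8 and Krt18 form the simple epithelial filament of both cell types. Krt8 was at 154, 121 and 177 FPKM in MPH, against 2249, 2576 and 2838 FPKM in BECs (log2 difference -4.09, SE 0.26, adjusted p = 2.68e-05), and Krt18 at 173, 125 and 182 FPKM in MPH, against 1289, 1491 and 1794 FPKM in BECs (log2 difference -3.25, SE 0.27, adjusted p = 6.53e-05). Each MPH library thus held both in quantity. Krt7, known from duct epithelium, was near 0 in MPH, whereas Krt23 was uneven there. Krt7 had levels of 0.16, 0.146 and 0.0985 FPKM in MPH, against 19.6, 27.7 and 21 FPKM in BECs (log2 difference -4.37, SE 0.18, adjusted p = 8.36e-06), and Krt23, an acidic keratin, at 0.24, 4.15 and 7.84 FPKM in MPH, against 57, 65.2 and 111 FPKM in BECs (log2 difference -4.30, SE 0.68, adjusted p = 0.00134). Eppk1, a plakin that bundles keratin, stood at 0.219, 0.263 and 0.563 FPKM in MPH, against 18.9, 22.4 and 13.1 FPKM in BECs (log2 difference -3.80, SE 0.23, adjusted p = 2.1e-05).

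Junction genes went both ways, with 6 of 21 higher in MPH and 13 higher in BECs. Scaled to a common sum the counts were 5 and 15, beside 10.1% and 61.8% of all genes. Cldn4, whose promoter is printed above, had the most negative log2 difference of any tested gene (-8.43). It was at 0.0828, 0.305 and 0 FPKM in MPH, against 258, 449.6 and 499 FPKM in BECs, and was listed at 0 in MPH 3 (log2 difference -8.43, SE 0.28, adjusted p = 6.78e-06). Sprr1a, with the same AP-1 letters in its promoter, had levels of 0.56, 0 and 0.574 FPKM in MPH, against 114, 131 and 105 FPKM in BECs (log2 difference -6.44, SE 0.23, adjusted p = 6.78e-06). In MPH neither reached 1 FPKM. Cldn7 stood at 0.0772, 0.976 and 0.535 FPKM in MPH, against 109, 142 and 122 FPKM in BECs (log2 difference -6.39, SE 0.25, adjusted p = 7.46e-06), and Ocln, occludin, at 1.96, 3.19 and 5.54 FPKM in MPH, against 30.1, 38.9 and 26 FPKM in BECs (log2 difference -2.90, SE 0.31, adjusted p = 0.000211). Claudins of the hepatocyte side were fewer. Cldn14 was at 10.9, 10.7 and 16.7 FPKM in MPH, against 0.662, 0.361 and 0.884 FPKM in BECs (log2 difference 3.06, SE 0.23, adjusted p = 3.99e-05), and Cldn1 at 9.5, 26.2 and 50.2 FPKM in MPH, against 3.99, 2.3 and 1.83 FPKM in BECs (log2 difference 2.77, SE 0.54, adjusted p = 0.00381). Gjb2, connexin 26, a partner of connexin 32 in hepatocytes, differed by 4.22. Cldn3, found at the junctions of both cell types, was high in both, at 82, 78.6 and 98.2 FPKM in MPH, against 185, 216 and 243 FPKM in BECs (log2 difference -1.30, SE 0.22, adjusted p = 0.00195).

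Basement membrane and integrin genes were higher in BECs in 16 of 21 cases (median -2.23). Lama5, the alpha chain of laminins 511 and 521, was at 0.858, 1.78 and 0.457 FPKM in MPH, against 33, 38.8 and 26.7 FPKM in BECs (log2 difference -4.09, SE 0.27, adjusted p = 3e-05). Laminin receptors followed. Itga3 had levels of 0.922, 2.52 and 2.9 FPKM in MPH, against 45.9, 47.8 and 48.9 FPKM in BECs (log2 difference -4.03, SE 0.28, adjusted p = 3.34e-05), and Itgb4, which binds laminin in hemidesmosomes, at 0.15, 0.271 and 0.28 FPKM in MPH, against 15.9, 15.9 and 15.7 FPKM in BECs (log2 difference -3.77, SE 0.15, adjusted p = 7.46e-06). The BECs values of Itgb4 were almost equal. Itgb1, the common beta chain, differed little, at 73, 103 and 87.6 FPKM in MPH, against 132, 131 and 133 FPKM in BECs (log2 difference -0.60, SE 0.22, adjusted p = 0.0481). Without MPH 1, MPH 3, BECs 1, BECs 2 or BECs 3, the adjusted p of Itgb1 was 0.119, 0.0669, 0.132, 0.122 or 0.0911. With sex as a term in the fit it was 0.0803. Some matrix genes in this list are also made by fibroblasts, whose markers were higher in the BECs libraries, and their part in these differences was not tested.

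Genes of ductal secretion went both ways, with 3 of 17 higher in MPH and 10 higher in BECs. Cftr was at 0, 0.051 and 0.0149 FPKM in MPH, against 4.96, 4.32 and 3.5 FPKM in BECs (log2 difference -2.35, SE 0.16, adjusted p = 2.87e-05), and Sctr at 0, 0.0394 and 0.0575 FPKM in MPH, against 4.15, 3.24 and 5.38 FPKM in BECs (log2 difference -2.33, SE 0.18, adjusted p = 4.85e-05). Their BECs levels were a few FPKM. Ano1, a calcium-gated chloride channel, was more abundant than Cftr within BECs by FPKM, at 0.265, 0.964 and 0.426 FPKM in MPH, against 27.5, 30.1 and 23.8 FPKM in BECs (log2 difference -4.20, SE 0.21, adjusted p = 1.4e-05). Potassium channels that sustain chloride exit were present in BECs. Kcnk1 had levels of 0.0673, 0.354 and 0.207 FPKM in MPH, against 45.8, 57.5 and 39.1 FPKM in BECs (log2 difference -5.31, SE 0.20, adjusted p = 6.78e-06), and Kcnn4 at 0.72, 0.79 and 0.113 FPKM in MPH, against 13, 15.4 and 15.3 FPKM in BECs (log2 difference -3.36, SE 0.22, adjusted p = 2.82e-05). Bicc1, an RNA-binding protein of renal and biliary tubules, stood at 0.525, 1.16 and 0.778 FPKM in MPH, against 64, 50.4 and 45.1 FPKM in BECs (log2 difference -4.89, SE 0.21, adjusted p = 8.47e-06). Slc4a2, the exchanger that moves bicarbonate into bile, differed little, at 6.36, 7.08 and 9.19 FPKM in MPH, against 9.8, 12.9 and 12.7 FPKM in BECs (log2 difference -0.59, SE 0.20, adjusted p = 0.0373). Without MPH 1, MPH 2, BECs 2 or BECs 3, the adjusted p of Slc4a2 was 0.101, 0.0999, 0.128 or 0.0968. With sex as a term it was 0.0593. Water channels of the hepatocyte were higher in MPH. Aqp8 was at 98.9, 191 and 274 FPKM in MPH, against 7.96, 5.8 and 9.2 FPKM in BECs (log2 difference 4.35, SE 0.38, adjusted p = 8.26e-05), and Aqp9, which also carries glycerol, at 37.1, 88 and 93.9 FPKM in MPH, against 7.61, 2.15 and 4.49 FPKM in BECs (log2 difference 3.69, SE 0.47, adjusted p = 0.000464). Aqp1, the water channel of cholangiocytes, overlapped, at 358, 477 and 71.4 FPKM in MPH, against 278, 283 and 234 FPKM in BECs (adjusted p = 0.824). Sinusoidal endothelium also makes Aqp1, and Kupffer-like cells held 759.9 FPKM of it. The summed endothelial markers were 1028, 1044 and 229 FPKM in MPH 1, 2 and 3. In the Kupffer-like libraries they were higher, at 1711, 2077 and 2094 FPKM.

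Of the mucin, trefoil and defence genes, 0 of 11 were higher in MPH and 7 in BECs (median -2.54). Dmbt1, a secreted mucosal scavenger, was at 0.575, 1.98 and 2.43 FPKM in MPH, against 796, 1288 and 311 FPKM in BECs (log2 difference -8.08, SE 0.54, adjusted p = 3.1e-05). Its BECs libraries differed widely among themselves and were all far above MPH. Tff2, a trefoil peptide, had levels of 0, 0.136 and 0 FPKM in MPH, against 38.5, 75 and 108 FPKM in BECs (log2 difference -6.04, SE 0.35, adjusted p = 2.08e-05), and Spink4, a protease inhibitor of goblet cells, at 0, 0.332 and 0 FPKM in MPH, against 47.4, 189 and 76.6 FPKM in BECs (log2 difference -6.34, SE 0.46, adjusted p = 4.17e-05). Both were listed at 0 in MPH 1 and MPH 3. Clu, the chaperone clusterin, was among the 5 most abundant transcripts of BECs, at 326, 322 and 618 FPKM in MPH, against 2665, 2604 and 2468 FPKM in BECs (log2 difference -2.68, SE 0.33, adjusted p = 0.000383). Tff3 and Lcn2 overlapped. Tff3 stood at 126, 4.5 and 323 FPKM in MPH, against 14.9, 34.1 and 5.73 FPKM in BECs (adjusted p = 0.274), and Lcn2, an acute phase iron carrier, at 95.9, 14.4 and 10.0 FPKM in MPH, against 35.5, 57.9 and 57.4 FPKM in BECs (adjusted p = 0.309). Pigr, which carries IgA into bile, was high in both, at 196, 282 and 538 FPKM in MPH, against 165, 321 and 132 FPKM in BECs (adjusted p = 0.246).

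Genes of the primary cilium, which the hepatocyte lacks, were modestly higher in BECs. Of 37 tested, 0 were higher in MPH and 26 in BECs (median -0.91). Scaled to reads in genes, 35 were higher in BECs, beside 48.5% of all genes. Dcdc2a, a microtubule protein of the cilium, was at 0.29, 0.927 and 0.335 FPKM in MPH, against 29.8, 23 and 24.7 FPKM in BECs (log2 difference -4.16, SE 0.21, adjusted p = 1.42e-05). Pkd2, the channel of polycystic disease, had levels of 3.09, 4.64 and 3.97 FPKM in MPH, against 17.1, 17.6 and 10.4 FPKM in BECs (log2 difference -1.69, SE 0.24, adjusted p = 0.000799), and Pkhd1, fibrocystin, from the biliary markers, at 0.636, 1.06 and 1.54 FPKM in MPH, against 24.7, 21.1 and 16.6 FPKM in BECs (log2 difference -3.40, SE 0.23, adjusted p = 3.04e-05). Bbs2 stood at 1.14, 1.34 and 1.05 FPKM in MPH, against 6.16, 6.73 and 5.89 FPKM in BECs (log2 difference -1.74, SE 0.15, adjusted p = 7.78e-05) and B9d1 at 0.425, 0.597 and 0.872 FPKM in MPH, against 4.05, 4.28 and 6.83 FPKM in BECs (log2 difference -1.87, SE 0.22, adjusted p = 0.000302). Most of the list lay under 10 FPKM in both cell types, where the pseudocount shrinks differences.

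Notch and Hippo genes were more often higher in BECs than in MPH. Of the Notch genes, 1 of 16 was higher in MPH and 9 were higher in BECs. Jag1, the ligand needed for bile duct formation, was at 0.723, 1.85 and 1.69 FPKM in MPH, against 30.5, 29.9 and 23.3 FPKM in BECs (log2 difference -3.60, SE 0.24, adjusted p = 2.82e-05), and Jag2 at 0.0108, 0.0796 and 0.0166 FPKM in MPH, against 4.52, 5.37 and 6.87 FPKM in BECs (log2 difference -2.65, SE 0.17, adjusted p = 2.81e-05). Of the receptors, Notch3 had levels of 0.252, 0.679 and 0.302 FPKM in MPH, against 16, 17.2 and 11.8 FPKM in BECs (log2 difference -3.50, SE 0.21, adjusted p = 2.08e-05), and Notch2 at 4.92, 7.78 and 7.5 FPKM in MPH, against 26, 20.2 and 16.2 FPKM in BECs (log2 difference -1.49, SE 0.24, adjusted p = 0.00145). Notch3 is also a gene of pericytes and smooth muscle, whose markers were higher in BECs libraries. Of the Hippo genes and YAP targets, 1 of 18 was higher in MPH and 11 in BECs. Ankrd1, a YAP target, stood at 0.0852, 0.808 and 0.328 FPKM in MPH, against 237, 309.6 and 477 FPKM in BECs (log2 difference -7.90, SE 0.31, adjusted p = 7.46e-06), and Cyr61, a matricellular YAP target, at 58.1, 98.8 and 60.1 FPKM in MPH, against 2085, 1995 and 2039 FPKM in BECs (log2 difference -4.84, SE 0.28, adjusted p = 1.98e-05). Yap1 itself overlapped, at 7.93, 9.67 and 13 FPKM in MPH, against 10.0, 11.9 and 8.52 FPKM in BECs (adjusted p = 0.978), whereas Wwtr1, its relative TAZ, was at 9.01, 12.4 and 7.41 FPKM in MPH, against 31.7, 34 and 21.8 FPKM in BECs (log2 difference -1.51, SE 0.25, adjusted p = 0.00165). The member higher in MPH was the receptor Axl, at 124, 86.1 and 49.3 FPKM in MPH, against 28.3, 31.3 and 29.2 FPKM in BECs (log2 difference 1.42, SE 0.33, adjusted p = 0.00852). It is a gene of Kupffer cells too, at 155 FPKM in Kupffer-like cells, its MPH values have the order of the Kupffer cell marker sums, and its call was lost under both other scalings and with quantile normalization.

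Wnt targets and zonation genes had no common direction, with 4 of 12 higher in MPH and 2 higher in BECs. The shares of all tested genes were 28.6% and 26.6%. Scaled to a common sum the counts were 2 and 7, beside 10.1% and 61.8% of all genes. Cyp2e1, a cytochrome of hepatocytes around the central vein, was at 705, 1441 and 1129 FPKM in MPH, against 302, 77.7 and 141 FPKM in BECs (log2 difference 2.80, SE 0.52, adjusted p = 0.00289), and Lect2, a secreted Wnt target, at 42.8, 139.8 and 75.3 FPKM in MPH, against 10.1, 1.38 and 12.9 FPKM in BECs (log2 difference 3.44, SE 0.71, adjusted p = 0.00475). MPH 2 was highest for both. Ctnnb1, beta-catenin, had levels of 68.8, 57.6 and 69.5 FPKM in MPH, against 144, 141 and 115 FPKM in BECs (log2 difference -1.02, SE 0.21, adjusted p = 0.00485).

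Genes of iron and other metals went both ways, with 7 of 15 higher in MPH and 5 higher in BECs. Scaled to a common sum the counts were 3 and 7, beside 10.1% and 61.8% of all genes. Hamp, the gene of the iron hormone hepcidin, was at 96.8, 1491 and 1406 FPKM in MPH, against 15.4, 13.8 and 11.1 FPKM in BECs (log2 difference 5.37, SE 0.98, adjusted p = 0.00272). MPH 1 was far below the other MPH libraries. Slc40a1, ferroportin, the iron exporter, had levels of 110.2, 88.6 and 61.7 FPKM in MPH, against 4.38, 3.92 and 2.86 FPKM in BECs (log2 difference 4.19, SE 0.26, adjusted p = 2.22e-05), with 145 FPKM in Kupffer-like cells. Bmp6, a signal for hepcidin that endothelial cells make, was higher in BECs, at 7.36, 11.6 and 2.26 FPKM in MPH, against 20.4, 18.8 and 24 FPKM in BECs (log2 difference -1.65, SE 0.46, adjusted p = 0.0177). Without BECs 3, the adjusted p of Bmp6 was 0.0645. Without MPH 3 its log2 difference was -1.10.

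All 14 genes of the immediate early list, many of which respond within minutes to stress and to cell isolation, were higher in BECs (median -2.92). Fosl1 was at 0.396, 0.603 and 0.339 FPKM in MPH, against 106, 145 and 94.8 FPKM in BECs (log2 difference -6.31, SE 0.21, adjusted p = 6.78e-06). Atf3, a stress factor, had levels of 71.2, 44.1 and 33.1 FPKM in MPH, against 1903, 1691 and 2141 FPKM in BECs (log2 difference -5.31, SE 0.32, adjusted p = 2.13e-05), and Fosb at 30.3, 54.5 and 25.4 FPKM in MPH, against 984, 952 and 920.0 FPKM in BECs (log2 difference -4.73, SE 0.31, adjusted p = 2.82e-05). Fos stood at 596, 546 and 379.9 FPKM in MPH, against 2201, 1925 and 1986 FPKM in BECs (log2 difference -2.03, SE 0.28, adjusted p = 0.000686), and Jun at 288, 256 and 261 FPKM in MPH, against 1551, 1478 and 1611 FPKM in BECs (log2 difference -2.53, SE 0.23, adjusted p = 9.62e-05). These AP-1 genes were abundant in both preparations and higher in BECs, with 1366 FPKM of Fos and 679 FPKM of Jun in Kupffer-like cells. The heat shock genes Hspa1a and Hspa1b, named after their values were seen, was at 15.3, 17.3 and 11.1 FPKM in MPH, against 300.2, 306 and 199 FPKM in BECs and at 16.1, 6.84 and 20.1 FPKM in MPH, against 467, 546 and 267 FPKM in BECs (-4.11 and -4.86 on the log2 scale). How much of these levels arose during isolation was not tested.

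Chemokine and cytokine genes were higher in MPH in 1 of 23 cases and higher in BECs in 17 (median -1.72). Cx3cl1, the tethered chemokine fractalkine, was at 0.21, 0.423 and 0.118 FPKM in MPH, against 18.9, 24.9 and 21.9 FPKM in BECs (log2 difference -4.19, SE 0.18, adjusted p = 8.47e-06), and Cxcl5, which draws neutrophils, at 0.161, 0.17 and 0.186 FPKM in MPH, against 14.9, 28.7 and 10.1 FPKM in BECs (log2 difference -3.89, SE 0.34, adjusted p = 7.99e-05). Kupffer-like cells held 0.259 and 0.208 FPKM of these. Tgfb2 had levels of 0.169, 0.232 and 0.32 FPKM in MPH, against 12.7, 10.3 and 11.4 FPKM in BECs (log2 difference -3.33, SE 0.16, adjusted p = 1.08e-05). Tnf stood at 4.72, 13.1 and 2.33 FPKM in MPH, against 88.2, 106 and 95 FPKM in BECs (log2 difference -3.91, SE 0.48, adjusted p = 0.000398), and is one of the genes of this list that Kupffer-like cells also held in quantity (75.7 FPKM). Ccl2, which draws monocytes, was at 18, 17 and 4.27 FPKM in MPH, against 41.5, 60.7 and 89.1 FPKM in BECs (log2 difference -2.35, SE 0.53, adjusted p = 0.00705), with 57.8 FPKM in Kupffer-like cells. Il18, the member higher in MPH, had levels of 19.5, 14.6 and 12.1 FPKM in MPH, against 7.77, 7.41 and 7.36 FPKM in BECs (log2 difference 0.92, SE 0.20, adjusted p = 0.00605), with 18.6 FPKM in Kupffer-like cells, and its call was lost under both other scalings. Antigen presentation genes were higher in MPH in 1 of 14 cases and higher in BECs in 5, beside 28.6% and 26.6% of all tested genes. H2-Eb1, of MHC class II, stood at 203, 259.8 and 62.3 FPKM in MPH, against 595, 538 and 699.8 FPKM in BECs (log2 difference -2.02, SE 0.52, adjusted p = 0.0126). MPH 3 was lowest, and it also had the lowest Kupffer cell and endothelial marker sums. MPH 2 was highest for H2-Eb1 and for the endothelial sum, whereas MPH 1 had the highest Kupffer cell marker sum. The source of H2-Eb1 in MPH was not tested. B2m, the light chain of MHC class I, was higher in MPH, at 3909.5, 3395 and 4093 FPKM in MPH, against 1122, 1144 and 1657 FPKM in BECs (log2 difference 1.56, SE 0.29, adjusted p = 0.00306), a call that was lost under both other scalings and with quantile normalization.

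**Figure D4:**
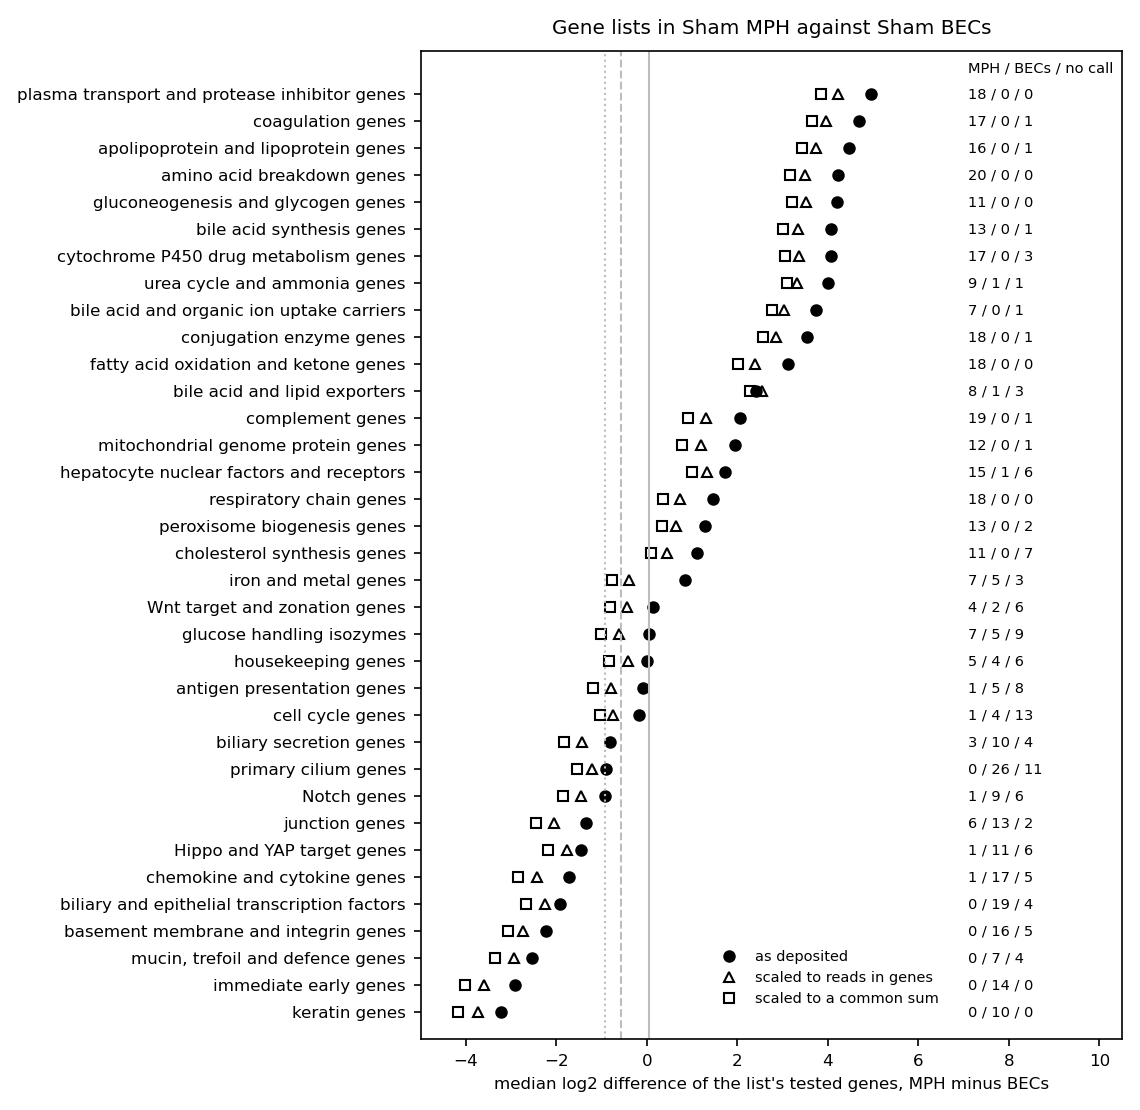
Median log2 difference between MPH and BECs (x axis) over the tested genes of each list other than the cell type markers, as deposited (circles), scaled to reads in genes (triangles) and scaled to a common FPKM sum (squares), with the counts called higher in MPH, higher in BECs and not called as deposited at the right. The vertical lines mark the median of all tested genes under each scaling (0.0377, -0.569 and -0.918). The lists of iron and metal, Wnt, glucose handling and housekeeping genes change sign between scalings.

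Some abundant transcripts had near equal levels as deposited. Only 5 genes had a mean of at least 500 FPKM in both cell types and a log2 difference under 0.25 in size. They were mt-Rnr2, H2-D1, Tpt1, Rplp0 and Rps15. They were chosen by that closeness, so it cannot check the scaling. Under other scalings several of these were lower in MPH. Rplp0, a ribosomal stalk protein, was at 832, 511 and 598 FPKM in MPH, against 541, 549 and 832 FPKM in BECs, with groups that overlapped (adjusted p = 0.974), and was called higher in BECs on scaling to a common sum. Tpt1 had levels of 713, 578 and 678 FPKM in MPH, against 649.7, 609 and 791 FPKM in BECs (adjusted p = 0.871). Genes used as references elsewhere were not all level. Of 15 housekeeping genes, 5 were higher in MPH and 4 in BECs, about as often as genes overall (28.6% and 26.6%). Hprt, of purine salvage, stood at 78.2, 61.6 and 74.3 FPKM in MPH, against 35.2, 36.8 and 36.5 FPKM in BECs (log2 difference 0.95, SE 0.19, adjusted p = 0.004), and its call was lost under both other scalings and with quantile normalization. Actb, beta-actin, was at 1244, 797 and 589.9 FPKM in MPH, against 1856, 1709.6 and 1906 FPKM in BECs (log2 difference -1.12, SE 0.33, adjusted p = 0.0234). Without MPH 2, MPH 3, BECs 1, BECs 2 or BECs 3, the adjusted p of Actb was 0.0629, 0.056, 0.0765, 0.0568 or 0.0639. Of the cell cycle genes, 1 of 18 was higher in MPH and 4 were higher in BECs, beside 28.6% and 26.6% of all tested genes. Pcna, the DNA clamp, had levels of 34.5, 32.9 and 24.3 FPKM in MPH, against 74.3, 75.1 and 83.2 FPKM in BECs (log2 difference -1.33, SE 0.21, adjusted p = 0.00129), while Mki67 stayed under 5 FPKM in each library, at 3.33, 1.53 and 0.932 FPKM in MPH, against 2.54, 3.19 and 4.9 FPKM in BECs (adjusted p = 0.116).

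Transcripts of other liver cells were present in both preparations. All 12 Kupffer cell markers were higher in MPH than in BECs, and Marco, a scavenger receptor of macrophages, had the largest difference towards MPH among the genes named by rule (7.11). It was at 1047, 105 and 118 FPKM in MPH, against 0.288, 0.564 and 1.49 FPKM in BECs, with MPH 1 far above MPH 2 and MPH 3 (log2 difference 7.11, SE 0.84, adjusted p = 0.000332), and without MPH 1 its log2 difference was 6.03. Clec4f, a lectin of Kupffer cells, had levels of 1098, 703 and 398 FPKM in MPH, against 6.91, 8.52 and 18.3 FPKM in BECs (log2 difference 5.90, SE 0.46, adjusted p = 5.53e-05), and Cd5l, a macrophage secreted protein, at 1698, 811 and 461 FPKM in MPH, against 4.01, 7.26 and 14.5 FPKM in BECs (log2 difference 6.64, SE 0.56, adjusted p = 7.38e-05). Clec4f and Cd5l were highest in MPH 1 and lowest in MPH 3, as were the summed Kupffer cell markers, at 10044, 4489 and 2422 FPKM in MPH, against 263.8, 242 and 450.9 FPKM in BECs, beside 8453, 8243 and 9713 FPKM in Kupffer-like cells. As deposited, the median marker in MPH was 62.1% of its level in Kupffer-like cells (range 45.1% to 153%), and 39.8% without MPH 1. The FPKM sums of whole libraries were 573878, 584216 and 834579 in MPH, against 290042, 272872 and 267916 in Kupffer-like cells. A common sum would thus lower MPH levels beside those of Kupffer-like cells. These shares and the counts that follow were taken on the deposited scale only. Of the genes called higher in MPH, 512 (13.2%) stood higher still in Kupffer-like cells, and so did 29 of the 563 that differed at least 8-fold. For 484 of those 563 the Kupffer-like mean was under 10% of the MPH mean. The Kupffer-like libraries also carried endothelial markers, with sums given below, so their levels need not be those of Kupffer cells alone. The part of Kupffer cell RNA in single MPH differences was not tested.

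Endothelial markers were higher in MPH in 6 of 11 cases and in BECs in 0, and 1 and 1 when scaled to a common sum. Their sums were 1028, 1044 and 229 FPKM in MPH, against 204, 233 and 272 FPKM in BECs. Kupffer-like cells had 1711, 2077 and 2094 FPKM. Stellate cell and fibroblast markers ran the other way, with 9 of 13 higher in BECs and sums of 76.7, 168 and 73.9 FPKM in MPH against 649.8, 849 and 1083 FPKM in BECs. Acta2, smooth muscle actin, was at 1.06, 0.889 and 0.585 FPKM in MPH, against 116, 147 and 183 FPKM in BECs (log2 difference -6.33, SE 0.22, adjusted p = 6.78e-06), and Col1a1, a fibrillar collagen, at 3.47, 5.77 and 8.32 FPKM in MPH, against 101, 168 and 257 FPKM in BECs (log2 difference -4.65, SE 0.40, adjusted p = 7.85e-05). Dpt, dermatopontin, a matrix protein of fibroblasts, was among the 10 largest differences towards BECs, at 0.611, 0.505 and 0.671 FPKM in MPH, against 156, 183 and 138 FPKM in BECs (log2 difference -6.64, SE 0.18, adjusted p = 6.78e-06). Myh11, the myosin of smooth muscle, named after its values were seen, had levels of 0.356, 0.834 and 0.152 FPKM in MPH, against 25.8, 31.9 and 28.7 FPKM in BECs. Lrat and Reln, which mark quiescent stellate cells, overlapped between the groups, at 2.89, 8.32 and 2.66 FPKM in MPH, against 5.28, 3.95 and 1.39 FPKM in BECs and at 1.99, 8.75 and 2.34 FPKM in MPH, against 2.24, 3.02 and 1.51 FPKM in BECs (adjusted p = 0.642 and 0.356). The mesothelial sums were 4.93, 12.6 and 11.8 FPKM in MPH, against 41.5, 33.1 and 58.4 FPKM in BECs. B and plasma cell markers varied most within BECs, with sums of 32.1, 27.4 and 15.3 FPKM in MPH against 211, 31.3 and 828 FPKM in BECs. No neutrophil marker of 7 tested was called by limma, and 1 had an unadjusted p under 0.05. Leaving aside the red cell markers, the marker of these lists listed at 0 was Ly6g, in MPH 3 and BECs 2, and every other one was above 0 in each of the 6 libraries. Their part in the differences above was not tested.

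**Figure D5:**
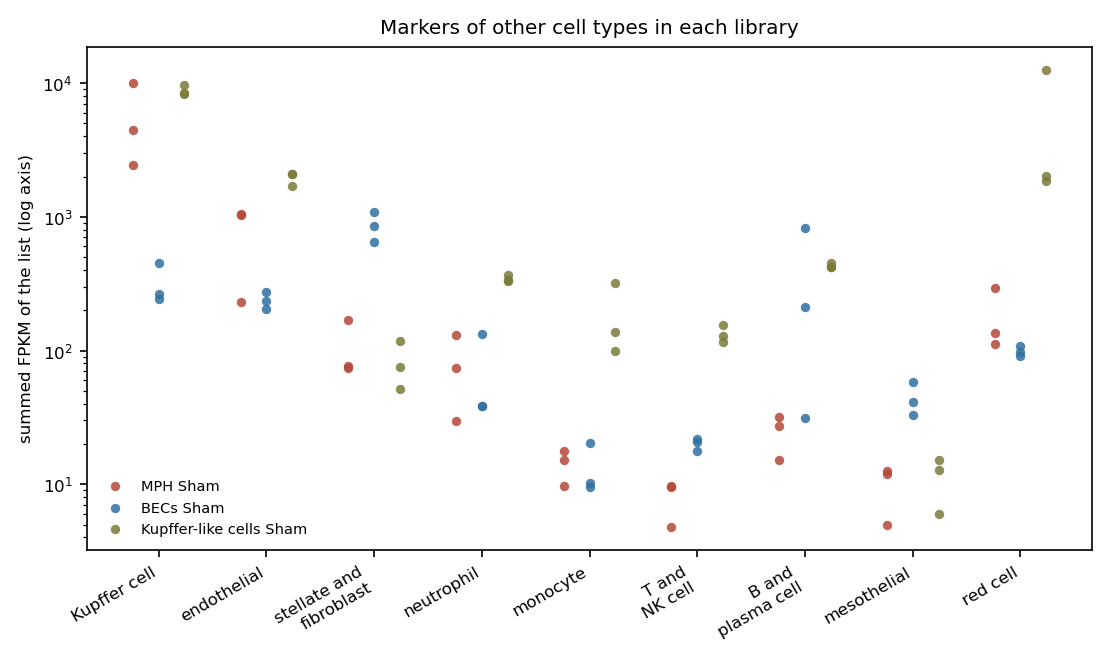
Summed FPKM, as deposited, of marker lists of other cell types (y axis, log) in each Sham library. Each group has 3 points, for MPH (red), BECs (blue) and Kupffer-like cells (olive). Kupffer cell markers lie between 2422 and 10044 FPKM in MPH and between 242 and 450.9 FPKM in BECs, and stellate and fibroblast markers lie between 73.9 and 168 FPKM in MPH and between 649.8 and 1083 FPKM in BECs.

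The same contrast was fitted to the BDL libraries, which share no sample with the Sham libraries. Of 13474 genes tested there, 3368 (25%) were higher in MPH and 3444 (25.6%) in BECs. Of the Sham calls for MPH, 2624 (67.9%, and 77.9% of the BDL calls) were called the same way, and of those for BECs 2475 (69%, and 71.9%). The shares of Sham calls also count genes not tested in BDL, where 3615 of the MPH calls and 3323 of the BECs calls were tested. The other way were called 7 and 9 genes.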

How the data were processed

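Poly(A) RNA libraries of MPH and BECs from Sham mice, 3 each, were compared. Per the labels' protocols, RNA was extracted with TRIzol and libraries were made with a VAHTS kit. The authors deposited FPKM values per gene; per the submitters' processing notes the tools were CASAVA 1.8, fastp, HISAT2 2.0.5, featureCounts 1.5.0-p3 and DESeq2 1.20.0 on GRCm38, while the sources used here do not give strandedness or annotation release. Antisense and overlapping genes and near-identical copies may therefore share reads.

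From the deposited FPKM, log2(FPKM + 1) of genes at 1 FPKM or more in at least 3 of the 6 libraries was fitted with limma 3.58.1 in R 4.3.3 (lmFit, then eBayes with trend and robust options), with Benjamini-Hochberg adjustment over all tested genes and a threshold of 0.05. Tests are two-sided. Steps of 1 read were recovered from FPKM and the exon lengths of genes in a GENCODE annotation of GRCm38, and 97.4% to 98.1% of values under 200 reads were whole within 0.02; counting error limits values near these steps. Of symbols, 105 repeat an earlier one. Their rows were kept as separate entries, and a gene named here is the first row of its symbol. Fits were tested on simulated data. Figures were drawn with matplotlib 3.10.9.

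The members and gene lists were chosen with earlier results of these data known. Genes were named by a rule: among called genes whose groups do not overlap and whose higher mean is at least 5 FPKM, without predicted-gene names, the 10 largest differences each way; the 5 highest means per group; 5 abundant close genes; up to 4 called genes each way per list; and members of the transcription factor, keratin and isozyme lists. The other genes named were chosen after their values were seen: Abcb4, Ambp, Anxa2, Apoe, Aqp1, C1s1, C3, Ccl2, Ccl21a, Cd24a, Cdh1, Cdh2, Cftr, Cldn3, Ctrb1, Cxcl13, Cyp2c70, Cyp2d9, Cyp39a1, Cyp7a1, Ddx3y, Duox2, Duoxa2, Eln, Fcna, Fos, Gas6, Gja1, Glul, Gm21320, Gsn, Hspa1a, Hspa1b, Itgb1, Jun, Krt7, Lcn2, Lrat, Ly6g, Mfap4, Mgp, Mki67, Myh11, Notch2, Ocln, Pigr, Pkhd1, Pnlip, Por, Prom1, Pros1, Prss2, Psmb5, Reln, Saa1, Sctr, Slc10a2, Slc3a1, Slc4a2, Sox9, Tff3, Ugt2b34, Vwf, Wwtr1 and Yap1. Some members of these lists are not reported here by name. Alternatives were other pseudocounts, filters, scalings, models and library sets, and sex as a covariate, added after seeing the data.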

Additional observations from a re-analysis of the deposited data

How the results depend on the processing

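Over all genes, the direction of calls depended on the scaling: 1922 and 6440 genes were called higher in MPH and in BECs with scaling to reads in genes, and 1428 and 8699 with a common FPKM sum, where 67 calls for MPH became calls for BECs. By their construction both scalings shift all genes of a library together. Testing against a log2 difference of 1 left 1214 and 1308 calls, and an FPKM minimum of 5 left 3006 and 1977 among 8275 genes tested. Every other setting over all genes stayed within 1.5 times of the deposited counts and moved no call to the other side: pseudocounts of 0.1 and 0.01, no filter (31183 genes), median ratio and quantile scaling, no trend, voom on the recovered reads (3839 and 3499 calls), 9 or 18 libraries in the model (libraries that share a title number taken as separate), and sex as a covariate (3666 and 3464), which was chosen after seeing the data. With no filter on level, the calls of Actb, Aldoa, Bmp6, C1s1, Cyp7a1, Hk1, Itgb1 and Slc4a2 were lost. With quantile normalization the log2 differences of Apoe, H2-D1, Rplp0 and Rps15 were -0.00455, -1.06, -1.25 and -1.15, and the cause was not tested. With a common sum, those of Cyp39a1, Foxa2, Hprt, Il18 and Pros1 were -0.794, -0.762, -0.18, -0.129 and -0.765. Those of Rplp0, Rps15 and Tcf7l2 were then -1.14, -1.13 and -0.756. The median over all tested genes was 0.0377 as deposited and -0.918 with a common sum. Leaving out 1 library gave 3066 to 3942 calls for MPH and 2932 to 3563 for BECs. As deposited, the Kupffer cell marker level in MPH was 39.8% to 79.4% of that in Kupffer-like cells when 1 MPH library was left out. No paired analysis was possible because the MPH and BECs libraries share no replicate number in their titles. Depth limits genes near 1 FPKM, and the depth of reads outside genes was not analysed here.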

Other observations

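Duox2, an oxidase of mucosal surfaces, had 0, 0 and 0.0361 FPKM in MPH, against 17.1, 59.6 and 18.2 FPKM in BECs (log2 difference -4.77, SE 0.44, adjusted p = 0.00011), and its maturation factor Duoxa2 had 0, 0 and 0.0727 FPKM in MPH, against 19.7, 71.6 and 41.2 FPKM in BECs (log2 difference -5.28, SE 0.41, adjusted p = 5.4e-05). Cd24a and Prom1, surface proteins known from progenitor and duct cells, ran the same way. Cd24a had 5.94, 4.17 and 2.78 FPKM in MPH, against 242, 261 and 189.7 FPKM in BECs (log2 difference -5.48, SE 0.27, adjusted p = 1.21e-05), and Prom1 had 0.0419, 0.353 and 0.258 FPKM in MPH, against 35.7, 38.5 and 29.7 FPKM in BECs (log2 difference -4.87, SE 0.18, adjusted p = 6.82e-06). Gas6, a ligand of the receptor Axl, had 34.4, 37.5 and 13.8 FPKM in MPH, against 723, 701 and 805 FPKM in BECs (log2 difference -4.77, SE 0.38, adjusted p = 5.93e-05), so that ligand and receptor were higher in different preparations as deposited. Gsn, the actin-severing protein gelsolin, had 7.74, 9.86 and 6.31 FPKM in MPH, against 515, 578 and 709 FPKM in BECs (log2 difference -6.07, SE 0.24, adjusted p = 7.46e-06). These genes, and those that follow, were chosen after their values were seen.

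Gene families chosen by symbol after the values were seen differed in how they moved. Of 27 tested collagen chains, 2 were higher in MPH and 24 in BECs (median -2.13), and of 10 annexins 0 and 7 (median -2.28). Anxa2 had 23.5, 17.8 and 8.59 FPKM in MPH, against 122, 169 and 140.1 FPKM in BECs. Of 38 proteasome subunits, 33 were higher in MPH and 0 in BECs (median 0.92), but 1 and 4 with scaling to a common sum. Psmb5 had 130.5, 98.7 and 104 FPKM in MPH, against 37.6, 41 and 40.8 FPKM in BECs (log2 difference 1.45, SE 0.20, adjusted p = 0.000738), a call that was lost with a common sum. Of 78 cytosolic ribosomal protein genes, 2 and 2 were called (median 0.01). With a common sum the counts were 1 and 62, beside 10.1% and 61.8% of all genes.

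Some transcripts known from vessels and connective tissue were higher in BECs, although the endothelial marker list had 6 of 11 genes higher in MPH. Vwf, of endothelium, had 1.54, 1.73 and 1.08 FPKM in MPH, against 44, 42.4 and 59 FPKM in BECs, and Mgp, of cartilage and vessel walls, had 2.85, 2.74 and 1.85 FPKM in MPH, against 91.9, 131 and 265 FPKM in BECs. Eln, elastin, had 0.696, 1.36 and 0.743 FPKM in MPH, against 24.6, 31.3 and 61.2 FPKM in BECs, and Mfap4, of elastic fibres, had 0.196, 0.0412 and 0.181 FPKM in MPH, against 56.3, 69.9 and 94 FPKM in BECs. Ccl21a, a chemokine of lymphatic endothelium, was listed at 0 in each MPH library, against 23.8, 49.5 and 44.1 FPKM in BECs. In MPH, further genes known from macrophages were high, with Fcna at 539, 359 and 179 FPKM in MPH, against 2.79, 4.61 and 6.93 FPKM in BECs and Cxcl13 at 409, 68.7 and 32.1 FPKM in MPH, against 2.89, 0.354 and 3.68 FPKM in BECs. Of the digestive enzymes of the pancreas, Pnlip, pancreatic lipase, had 6.83, 0.0533 and 0 FPKM in MPH, against 143, 0 and 0 FPKM in BECs, and Prss2, a trypsinogen, had 8.3, 0.0972 and 0 FPKM in MPH, against 121, 0.111 and 0 FPKM in BECs. Both were highest in MPH 1 and BECs 1 within their groups, and neither passed the filter on low values. Ctrb1, a chymotrypsinogen, did pass and had 22.3, 0.902 and 0.132 FPKM in MPH, against 496, 209 and 48.7 FPKM in BECs (log2 difference -5.55, SE 1.24, adjusted p = 0.0068). Saa1, an acute phase protein, was uneven within MPH, at 951, 37.5 and 196 FPKM in MPH, against 13.8, 11.5 and 6.06 FPKM in BECs (log2 difference 4.14, SE 1.03, adjusted p = 0.0112). The predicted gene Gm21320 had the largest difference towards MPH of all tested genes, at 992, 695 and 2981 FPKM in MPH, against 81, 0.158 and 0 FPKM in BECs (log2 difference 8.12, SE 1.62, adjusted p = 0.00412). The causes of these patterns were not tested.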
